A study of Mus musculus with 12 samples.

Results

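The 12 tumors of this series were compared by how much RNA of skeletal muscle fibres each contained. Tumors were chosen by a measured value: Acta1, the skeletal muscle actin gene, in counts per-million (CPM), its share of all reads of a tumor. The 6 tumors above 200 CPM are called muscle-RNA-rich here and the 6 tumors at or below 200 CPM are called muscle-RNA-poor. All tumors grew from Rd76-9, a mouse embryonal rhabdomyosarcoma (RMS) line that came from a methylcholanthrene-induced tumor of a female mouse. The cells were injected under the skin of the flank of wild type C57/Bl6J mice aged 8-12 weeks, and every tumor was dissected and frozen 16 days later. Each of 4 groups held 3 tumors. Vehicle tumors (m1, m2, m3) received empty nanoparticle and saline, VCR tumors (m4, m5, m6) received 0.25 mg/kg vincristine, RCM1-NPFA tumors (m7, m8, m9) received 8 μg per injection of the FOXM1 inhibitor RCM1 in folic acid nanoparticles, and VCR + RCM1-NPFA tumors (m10, m11, m12) received both agents. One label of the vehicle tumors names an RCM1 nanoparticle beside the empty one, while the titles and the design call them controls, and they were used as controls. The model rests on a single cell line, and each library was made from polyadenylated RNA of a whole tumor with its host cells. In bulk RNA, more muscle fibres and more RNA per fibre cannot be told apart.

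Skeletal muscle forms in steps. Myoblasts that express MYF5 and MYOD1 leave the cell cycle, switch on myogenin and fuse, and the resulting fibres assemble sarcomeres of actin, myosin, troponin and titin. Adult fibres differ in their myosin heavy chain: Myh4 marks the fastest glycolytic fibres (type IIb), Myh1 fast type IIx, Myh2 fast oxidative type IIa and Myh7 slow fibres. RMS is a tumor of cells that carry the early part of this programme without completing it, and desmin, MYOD1 and myogenin are its diagnostic markers.

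The upstream sequences of 6 genes are shown first, because these genes carry the contrast described here: Acta1, Ckm and Myh4 varied together across tumors, Myh1 followed them in part, and Myf5 and Cdh15 are muscle lineage genes that were not called. Each is the 250 bases before an annotated start in RefSeq (GRCm38.p6), 5′ to 3′ on the gene's strand. Every CANNTG, the E-box letters that MYOD1-family factors recognise, is in capitals.
Acta1: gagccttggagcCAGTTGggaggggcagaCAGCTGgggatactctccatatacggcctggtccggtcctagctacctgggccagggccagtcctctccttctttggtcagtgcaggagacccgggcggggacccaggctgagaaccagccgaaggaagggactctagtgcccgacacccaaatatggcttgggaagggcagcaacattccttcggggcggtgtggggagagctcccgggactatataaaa
Ckm: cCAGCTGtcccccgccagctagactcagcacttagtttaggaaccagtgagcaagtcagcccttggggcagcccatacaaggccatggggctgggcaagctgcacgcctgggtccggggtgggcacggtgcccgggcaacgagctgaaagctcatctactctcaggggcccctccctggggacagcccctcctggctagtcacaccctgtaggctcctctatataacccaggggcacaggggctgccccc
Myh4: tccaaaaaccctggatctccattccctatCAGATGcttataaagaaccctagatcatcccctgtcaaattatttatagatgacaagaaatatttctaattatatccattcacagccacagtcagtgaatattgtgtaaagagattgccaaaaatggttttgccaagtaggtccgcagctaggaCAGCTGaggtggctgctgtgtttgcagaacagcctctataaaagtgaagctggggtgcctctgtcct
Myh1: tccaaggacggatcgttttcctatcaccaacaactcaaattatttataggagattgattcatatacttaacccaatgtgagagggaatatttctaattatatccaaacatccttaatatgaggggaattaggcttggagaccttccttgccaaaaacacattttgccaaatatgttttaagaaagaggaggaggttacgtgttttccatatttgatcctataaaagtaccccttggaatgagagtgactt
Myf5: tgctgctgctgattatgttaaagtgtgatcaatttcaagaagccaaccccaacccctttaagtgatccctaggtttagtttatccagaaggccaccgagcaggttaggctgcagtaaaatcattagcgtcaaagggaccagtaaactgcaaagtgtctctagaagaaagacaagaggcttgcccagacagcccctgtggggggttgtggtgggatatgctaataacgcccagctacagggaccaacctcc
Cdh15: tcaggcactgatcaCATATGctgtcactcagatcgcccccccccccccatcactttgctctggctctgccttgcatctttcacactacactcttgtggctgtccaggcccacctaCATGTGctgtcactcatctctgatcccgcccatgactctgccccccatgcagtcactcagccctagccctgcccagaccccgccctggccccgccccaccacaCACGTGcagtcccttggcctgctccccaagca
These windows lie at chr8:123894776-123895025 (minus strand), chr7:19410844-19411093 (plus), chr11:67237562-67237811 (plus), chr11:67199852-67200101 (plus), chr10:107486135-107486384 (minus) and chr8:122848124-122848373 (plus). The Myf5 window lies inside the annotated span of that gene, chr10:107482908-107486927, whereas the other windows adjoin the ends of theirs. The Acta1, Ckm and Myh4 windows each held 1 copy of CAGCTG, a palindrome that is also a CANNTG, whereas the other windows held no copy. Among all 32851 RefSeq windows of this length, 13% held CAGCTG and 66.2% held CANNTG. Windows were found for 56 of the 77 adult fibre genes described below, and 42% of their 69 windows (some genes have several) held CAGCTG and 87% held CANNTG. The TATA letters TATAAA, read on both strands, were in 10.1% of the fibre gene windows and in 12.4% of all windows. These are matches of letters and not binding sites.

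Acta1 spanned a 7721-fold range. In poor tumors its level in CPM was 0.389 in m3, 1.30 in m2, 18.8 in m1, 24.8 in m7, 42.3 in m8 and 99.3 in m12. In rich tumors it was 357.9 in m6, 433.8 in m10, 868 in m4, 914.9 in m11, 2031.6 in m5 and 2999.7 in m9. The lowest rich tumor (m6, VCR) and the highest poor tumor (m12, VCR + RCM1-NPFA) lay on either side of the threshold and differed by 3.6-fold. The split was uneven over treatments: all 3 vehicle tumors were poor, all 3 VCR tumors were rich, 1 of 3 RCM1-NPFA tumors (m9) was rich, and 2 of 3 VCR + RCM1-NPFA tumors (m10, m11) were rich. Rich tumors made up 6 of 9 treated and 0 of 3 vehicle tumors, for which a two-sided Fisher's exact test gave p = 0.182, the smallest p these group sizes allow, so that the test could not have passed. Muscle RNA level and treatment therefore cannot be fully told apart in the comparison of all tumors, so it was repeated within the 9 treated tumors, 6 rich against 3 poor.

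Library totals overlapped between the groups. Totals of estimated counts ran from 29342195 to 32108055 reads per tumor, and the rich mean (31349726 ± 732186, SD, n = 6) differed from the poor mean (30807546 ± 864562, SD, n = 6) with a two-sided exact permutation p of 0.268, where the smallest possible was 0.00216. Y-linked transcripts were above 5 CPM in 4 rich and 3 poor tumors. Replicates are separate tumors, and differences were tested with edgeR's quasi-likelihood test at an adjusted p under 0.1. Because the groups were set by a value from these same libraries, a called gene is one that moves with Acta1 across tumors, and a call is not evidence of a drug effect.

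**Figure D1:**
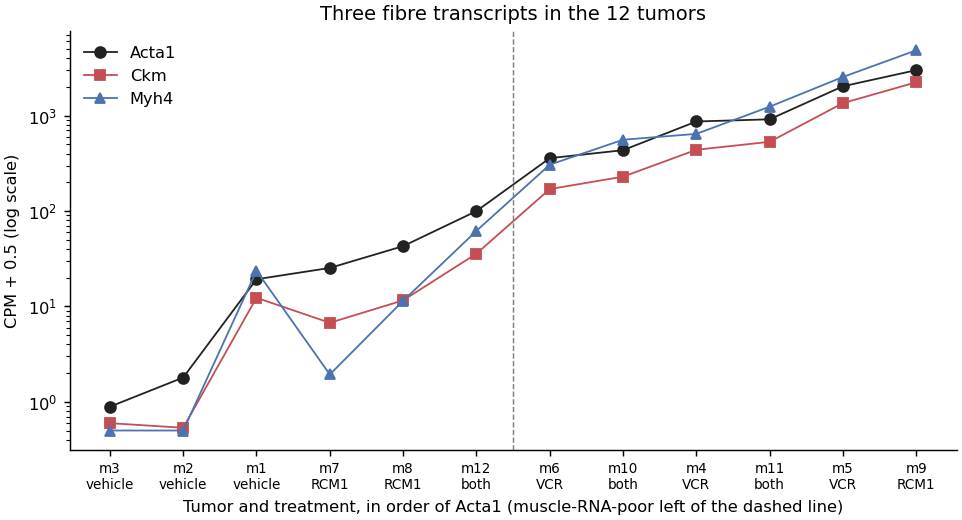
Level of Acta1, Ckm and Myh4 (CPM + 0.5, log scale) in each of the 12 tumors, placed in order of Acta1. Each point is 1 tumor and the dashed line is the 200 CPM split; the lines rise together on the right, and Myh4 falls below Ckm in m7, at 1.43 against 6.23 CPM.

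Ckm, the muscle creatine kinase that regenerates ATP in fibres, followed Acta1 most closely of all genes with a mean of at least 1 CPM. Its poor levels were 0.0971 in m3, 0.0341 in m2, 11.8 in m1, 6.23 in m7, 11.1 in m8 and 35.2 in m12, and its rich levels were 169.4 in m6, 228.7 in m10, 438.3 in m4, 531.2 in m11, 1353.2 in m5 and 2238.5 in m9. Every rich tumor was above every poor one, with Pearson's r of 0.99 to Acta1 over the 12 tumors on log2(CPM + 0.5), given as a description. The other 9 genes most like Acta1 by this measure were Atp2a1, Mylpf, Ttn, Myl1, Tnnc2, Mybpc2, Neb, Nrap and Myh4, with r from 0.97 to 0.99. They encode the fast-fibre calcium pump, myosin light chains, titin, fast troponin C, fast myosin-binding protein C, nebulin, a thin-filament anchor and the type IIb myosin heavy chain, so parts of the contractile apparatus, its scaffold and its calcium pump lay side by side.

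The adult fibre lists, 77 genes with Acta1 itself, were higher as a block in the rich tumors, and since the split was made on 1 of these genes they are described without a test. Of 72 that passed the filter on low counts, 58 were higher in every rich than in every poor tumor, against 2.13% of all 17602 genes tested. Their median log2 fold change (rich over poor) was 4.44, beside -0.01 for all genes. Summed reads of the 77 genes took 0.0452% (95% Wilson interval 0.0444% to 0.046%) of the reads in m2, the lowest tumor, 0.112% (0.111% to 0.114%) in m12, 0.296% (0.294% to 0.298%) in m6 and 2.61% (2.60% to 2.62%) in m9, the highest. These intervals cover counting error only.

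Fast sarcomere genes had the steepest differences. Myh4 was at 0 in m3 and m2, 23.1 CPM in m1, 1.43 in m7, 10.9 in m8 and 61.4 in m12. In the rich tumors it ran from 305.4 in m6 through 558.6 in m10, 643.7 in m4, 1240.9 in m11 and 2544.4 in m5 to 4847.8 in m9, a log2 fold change of 6.73 ± 1.29 (SE). Of 11 fast genes, 8 separated the groups with no overlap, including Actn3, Mylpf, Myl1 and the fast troponins Tnnt3, Tnni2 and Tnnc2. Tnni2 started from 28.2 to 57.5 CPM in the poor tumors, well above Mylpf at 0.259 to 16.8, and its log2 fold change of 2.77 was correspondingly smaller than that of Mylpf, 5.73. Myh13, the heavy chain of extraocular and laryngeal muscle, stayed between 0.529 and 1.11 CPM in every tumor.

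Most slow fibre genes were low in both groups. Myh7, the slow myosin heavy chain, never exceeded 0.128 CPM, and Myl2, the slow light chain, never exceeded 0.287. The slow troponins Tnnt1, Tnni1 and Tnnc1 held 1.5 to 4.45, 0.562 to 1.73 and 0.0991 to 1.17 CPM with overlapping groups. Mybpc1, slow-type myosin-binding protein C, was the most abundant rich-tumor member of this list, at 0 to 8.65 CPM in poor and 7.58 to 63.4 in rich tumors. The groups overlapped in Mybpc1 because m11 (7.58) lay below m12 (8.65).

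**Figure D2:**
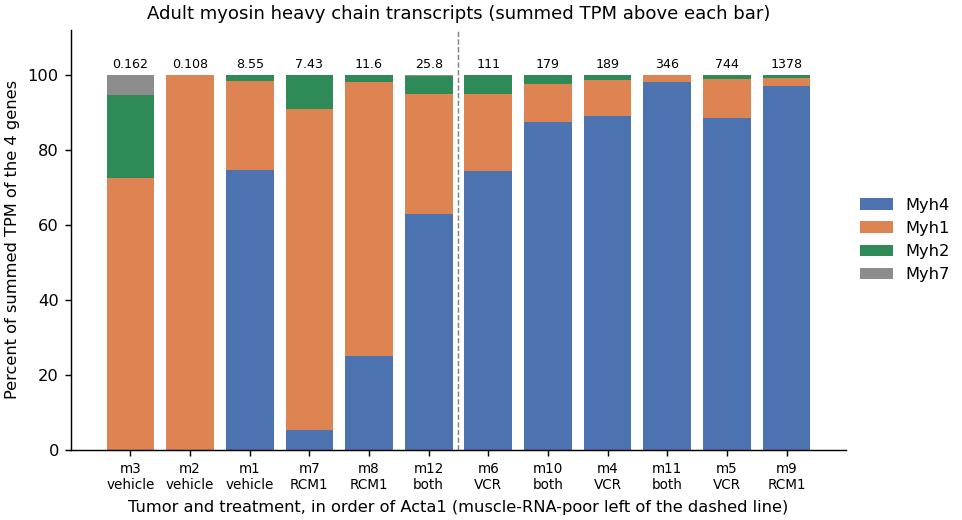
Share of Myh4, Myh1, Myh2 and Myh7 in the summed TPM of these 4 adult myosin heavy chain genes (percent) for each tumor, with the summed TPM above each bar. Myh1 leads in m7 and m8 and Myh4 leads in all 6 rich tumors, from 74.3% in m6 to 98.1% in m11.

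The mixture of myosin heavy chains differed between tumors of either group. In transcripts per-million (TPM), which corrects for transcript length, Myh4 made up 63% of the 4 adult heavy chains in m12, 74.3% in m6, 87.4% in m10, 89% in m4, 88.6% in m5, 97.2% in m9 and 98.1% in m11. In the poor tumors m7 and m8 it made up only 5.23% (95% Wilson interval 3.96% to 7.02%) and 25% (22.7% to 27.3%), and Myh1 made up 85.7% (83% to 87.8%) and 73.1% (70.7% to 75.3%). The vehicle tumor m1 held as much heavy chain as these, 8.55 TPM against 7.43 in m7 and 11.6 in m8, but 74.8% (72% to 77.4%) of it was Myh4. The intervals take the TPM share with the reads of the 4 genes, which were 979 in m1, 833 in m7 and 1382 in m8 and only 19 and 11.4 in m3 and m2, where no mixture can be read. Myh1, Myh2 and Myh4 are near-identical neighbours on chromosome 11, and reads that match several of them were divided by estimation, so the smaller shares are uncertain.

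Tumor m11 had the lowest Myh1 and Myh2 levels of the rich tumors. Its Myh1 level, 23.4 CPM, was the lowest of the rich tumors and below those of m7 (23.6), m8 (32.1) and m12 (31.2), while its Acta1 was the fourth lowest of the rich tumors. Myh2 was 0.712 CPM in m11 and 8.57 to 32.2 in the other rich tumors. The same tumor was low in Csrp3, a Z-disc stretch sensor (0.131 CPM, against 0.623 to 5.14 in the other rich tumors), and in Lmod2, an actin filament nucleator (0.457 against 2.06 to 4.78). By contrast Myh4, Ckm and Ttn in m11 lay between those of m4 and m5, as Acta1 did. Ratios to Acta1 were taken after adding 0.5 to each CPM, which raises them for genes near or under 0.5 CPM. The log2 ratios in m9 and m11 were -4.80 and -5.26 for Myh1, so relative to Acta1 its low level was largely shared by m9. For Myh2 they were -6.52 and -9.56. For Lmod2 they were -9.56 and -9.90, and for Csrp3 -11.38 and -10.5. Both genes were under 0.5 CPM in m11, so the size of these differences, and for Csrp3 the order of the 2 tumors, depends on the added 0.5.

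**Figure D3:**
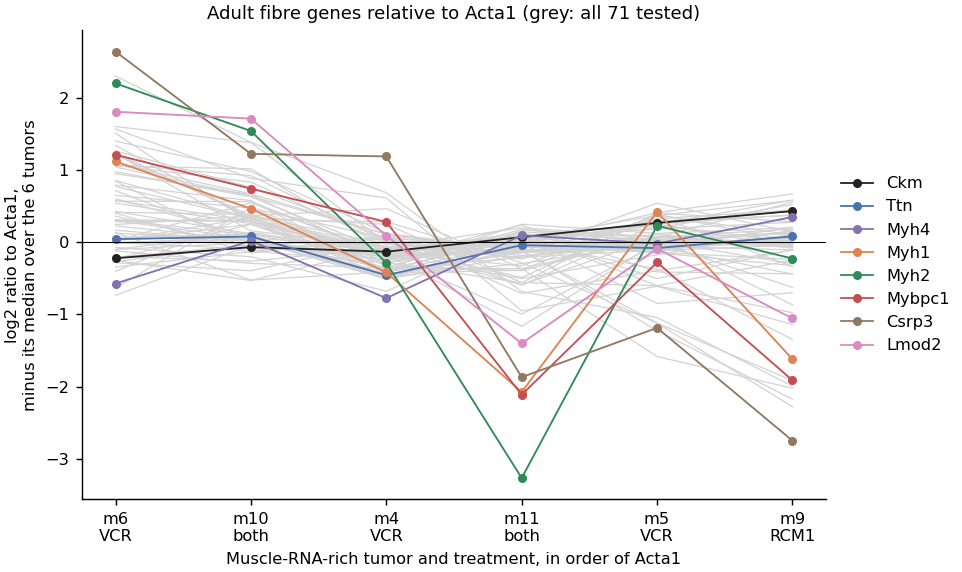
log2 ratio of each of 71 tested adult fibre genes to Acta1 in the 6 rich tumors. The ratio was taken after adding 0.5 to each CPM, and the gene's median over these tumors was subtracted. Each line is 1 gene, and grey lines are the genes not named in the legend. Ckm, Ttn and Myh4 stay within 2.18-fold over the 6 tumors, while Myh2 and Csrp3 span 44.2-fold and 42.1-fold.

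The ratio of each fibre gene to Acta1, with 0.5 added to each CPM, was compared over the 6 rich tumors, whose Acta1 spanned 357.9 to 2999.7 CPM. It stayed within 4-fold for 57 of 71 genes, a range that also admits genes whose own level changed little with Acta1, such as Eno3 (3.87-fold) and Jph1 (3.74-fold). The tightest were Ldb3, a Z-disc protein (1.31-fold from lowest to highest ratio), Neb, nebulin (1.33-fold) and Tnni2 (1.34-fold), and Ckm spanned 1.57-fold. The widest were Myh2 (44.2-fold), Csrp3 (42.1-fold), Myom3, an M-band protein (19.6-fold), the slow troponin Tnni1 (12.3-fold) and Mybpc1 (10-fold). Myh2, Csrp3 and Myom3 fell under 1 CPM in m11. The added 0.5 narrows their ranges, so the order among them depends on it. The slow troponins Tnnt1 and Tnnc1 and the heavy chain Myh13 also spanned over 4-fold. Like Tnni1, they had levels that did not rise with Acta1.

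Scaffold genes of the Z-disc and M-band had a median log2 fold change of 4.77, and 22 of 25 separated the groups. Titin (Ttn), the molecular ruler of the sarcomere, was at 0.874 to 19.8 CPM in poor and 73.6 to 637.1 in rich tumors (log2 fold change 5.1 ± 0.76, SE). Only Csrp3, Lmod2 and Myom3 overlapped. Of the 3, Csrp3 was highest in the rich tumors with least Acta1 (5.14 CPM in m6, 2.06 in m10, 4.49 in m4) and lowest in m11 (0.131) and m9 (0.623), the latter being the tumor with most Acta1.

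Calcium handling genes followed in 15 of 15 tested by direction, with a median log2 fold change of 4.1. Pvalb, the calcium buffer of fast fibres, had the largest fold change of the adult fibre lists: 0 to 6.66 CPM in poor and 38.2 to 626.2 in rich tumors, a log2 fold change of 6.77 ± 0.96 (SE). Atp2a1, the fast-fibre calcium pump, went from 0.818 to 57.6 in poor to 250.6 to 2414.9 CPM in rich tumors. Trdn and Jph1, which anchor the junction of the calcium store with the surface membrane, instead had a level in every tumor (9.78 to 19.4 and 12.9 to 19.2 CPM in poor tumors) and overlapped between the groups, with log2 fold changes of 1.16 and 0.53. Sln, the calcium pump inhibitor of slow and atrial muscle, never exceeded 0.545 CPM.

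All 15 genes of muscle energy metabolism separated the groups, with a median log2 fold change of 4.33. Pygm, glycogen phosphorylase of muscle, was at 0.647 to 10.3 CPM in poor and 50.5 to 638.6 in rich tumors. Eno3, muscle enolase, already reached 242.7 to 320.8 CPM in poor tumors and only 342.2 to 778.2 in rich ones (log2 fold change 0.87 ± 0.19, SE). Over all 12 tumors, the slope of log2 expression per doubling of Acta1 was 1.24 for Myh4, 1.15 for Ckm and 0.84 for Ttn, but 0.33 for Tnni2, 0.22 for Pfkm and 0.11 for Eno3. Slopes between 0.8 and 1.2 were found for 31 of the 72 tested fibre genes and for 85 of all 17602 genes.

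Over all genes, the comparison of all 12 tumors called 468 genes higher in rich tumors (2.66% of those tested) and 59 lower (0.335%). Of the 527 called genes, 63 belong to the adult fibre lists, whose calls follow from the split and are read as no test. For the other lists, counts of called members are set against these shares, at which a short list would often hold no called gene. The higher genes had a median log2 fold change of 2.51, and 371 of them exceeded 2-fold. The lower genes had a median of -0.42, and 3 of them exceeded 2-fold. Thus nearly all large differences ran in the direction of more RNA in the rich tumors.

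Among the treated tumors alone, 6 rich against 3 poor, edgeR called 0 of 17602 genes (0%). The smallest adjusted p was 0.125, shared by 103 genes, and 1399 genes had an unadjusted p under 0.05, against 2302 in the comparison of all tumors. DESeq2 called 425 genes and limma-voom 0 in the same 9 tumors. Fold changes were of like size: the median over the tested fibre genes was 3.84, beside 4.44 over all tumors, and all 468 higher and all 59 lower genes kept their direction. These 2 comparisons share the 6 rich tumors and 3 poor ones, so the second is not independent of the first.

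**Figure D4:**
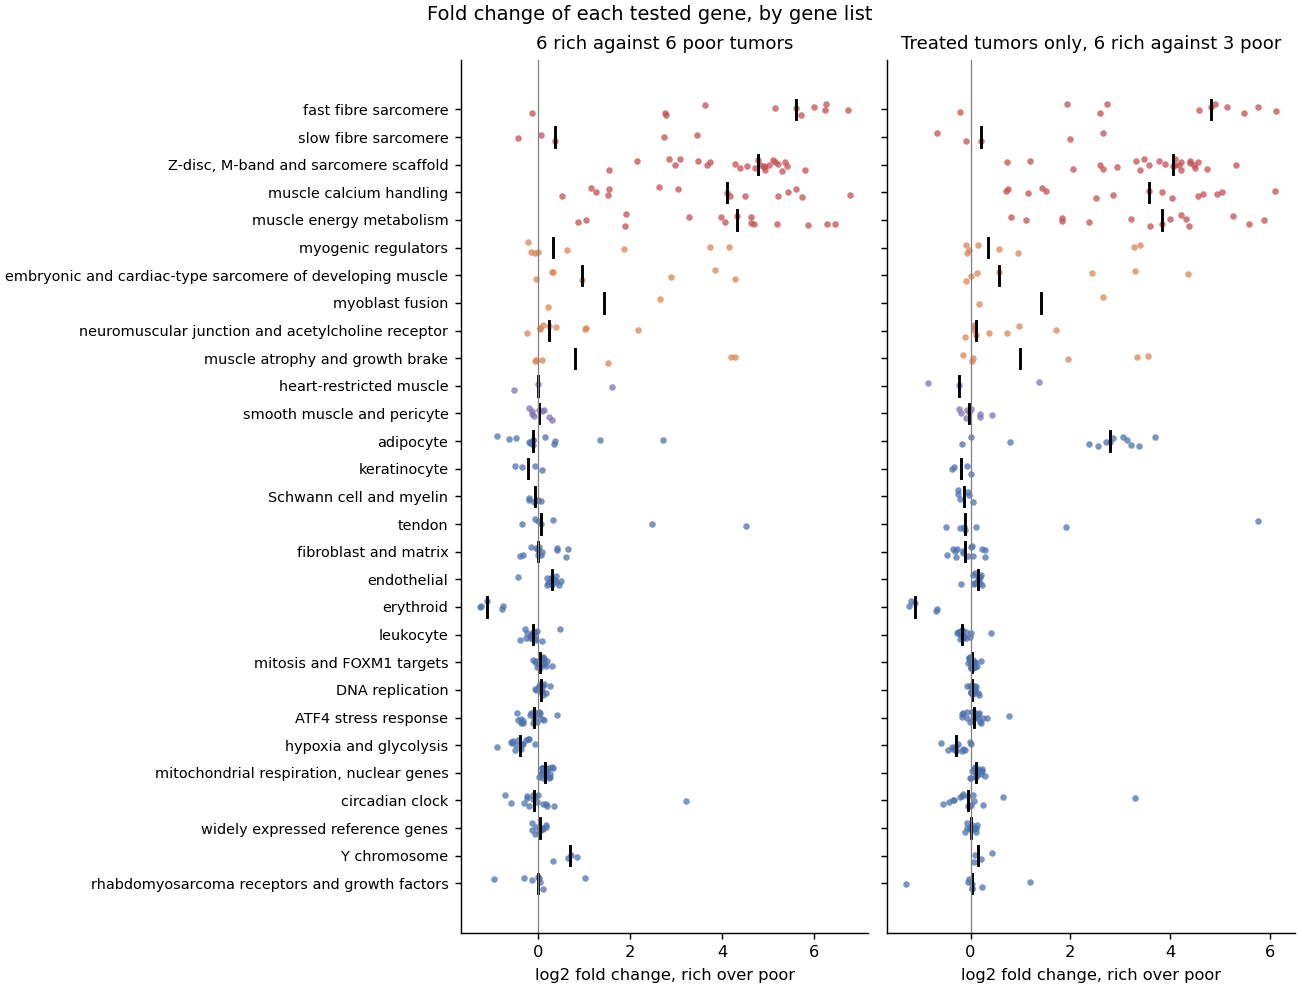
log2 fold change (rich over poor) of every tested gene in 29 gene lists, over all tumors (left) and within treated tumors (right); each point is 1 gene and the black bar is the list's median. Red adult fibre lists lie far to the right except the slow list, and the adipocyte list has medians of -0.11 (left) and 2.80 (right), with no gene called on the right.

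Muscle regulators split into genes that were called and genes that were not. Of 8 tested myogenic regulators, 2 were called higher in rich tumors and 0 lower, beside 2.66% and 0.335% of all genes. Myod1, the master regulator of the lineage and a diagnostic RMS marker, was at 0 in m3, m2 and m8, 0.0316 in m1, 0.033 in m7 and 0.449 CPM in m12, and at 0.655 to 2.37 in the rich tumors. Its groups did not overlap (log2 fold change 4.15 ± 0.74, SE, edgeR adjusted p = 0.00586). Myf6 (MRF4), the family member that persists in adult fibres, rose from 0.165 to 1.22 to 2.87 to 13.6 CPM (log2 fold change 3.73 ± 0.48, SE, edgeR adjusted p = 0.00204).

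Myog, myogenin, reached at most 2.15 CPM in any tumor and was not called (log2 fold change 1.87 ± 0.81, SE, edgeR adjusted p = 0.345). The poor tumor m12 (1.63 CPM) was above 5 of 6 rich tumors in this gene. MYOD1 and myogenin transcripts, which mark RMS, were thus near 0 in the tumors with least fibre RNA.

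Myf5, the early myoblast regulator, was at 64.7 in m3, 70.9 in m2, 54 in m1, 51.6 in m7, 48.6 in m8 and 54.2 CPM in m12, and at 68.2 in m6, 61.4 in m10, 58.7 in m4, 54.9 in m11, 52.1 in m5 and 49.1 in m9. These values overlapped fully (log2 fold change 0.00 ± 0.10, SE, edgeR adjusted p = 0.997). Pax7, the satellite cell marker, never exceeded 0.19 CPM. In TPM, Myf5 (38.8 to 59.9) exceeded Myod1 (0 to 2.19) in every tumor.

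**Figure D5:**
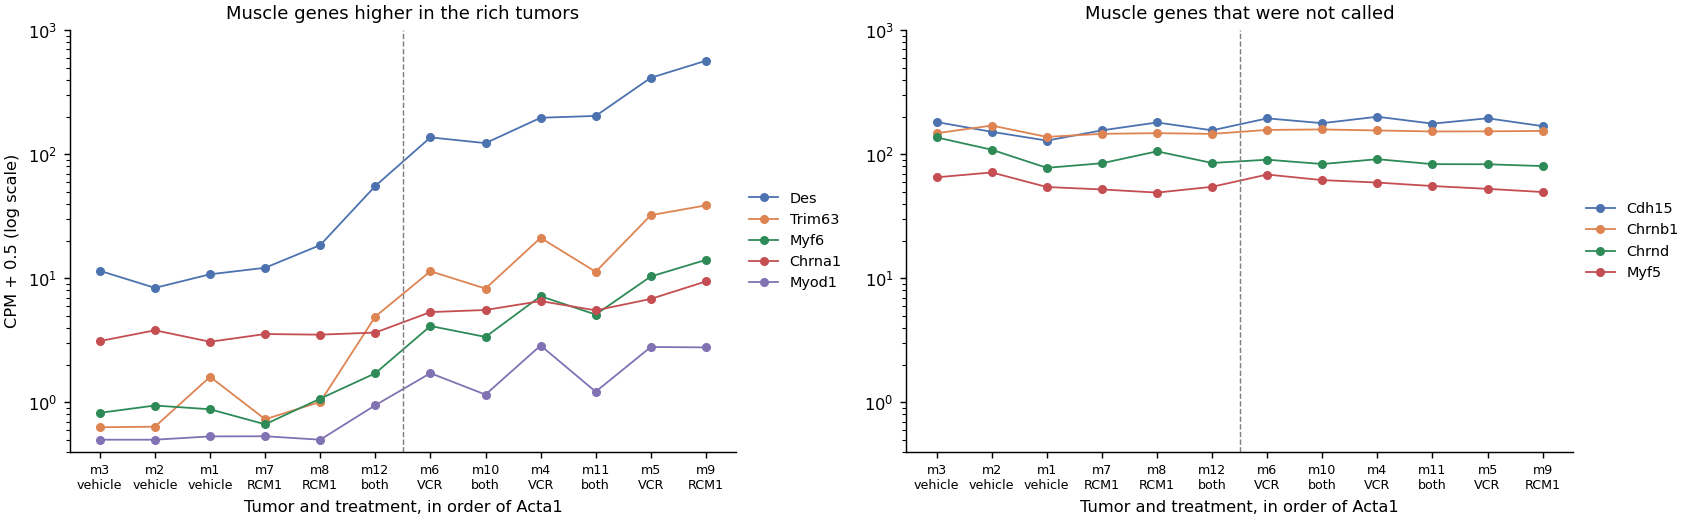
Level of 5 muscle genes called higher in the rich tumors (left) and of 4 muscle genes that were not called (right), in CPM + 0.5 on a log scale, for the 12 tumors in order of Acta1; each point is 1 tumor and the dashed line is the split. Des rises from 7.87 CPM in m2 to 566.7 in m9, whereas Cdh15 stays between 128.4 and 200.3.

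Genes of developing muscle divided in the same way. Des, desmin, the intermediate filament of muscle and the remaining RMS marker, was at 11 in m3, 7.87 in m2, 10.3 in m1, 11.7 in m7, 18 in m8 and 55 CPM in m12, and at 122.5 to 566.7 in the rich tumors (log2 fold change 3.86 ± 0.56, SE, edgeR adjusted p = 0.00204). Myh8, the perinatal myosin heavy chain, was called higher but stayed at or below 1.58 CPM, and Myh3, the embryonic heavy chain, was not called and stayed at or below 2.55. Actc1, the cardiac actin that fetal and regenerating skeletal muscle also uses, was called (log2 fold change 4.29 ± 0.98, SE, edgeR adjusted p = 0.0343). Its rich values were 0.824 in m6, 0.125 in m10, 4.27 in m4, 4.61 in m11, 6.50 in m5 and 34.9 in m9, so m10 lay below all 6 poor tumors (0.165 to 0.699) and m9 alone carried most of the group's mean.

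Of the fusion genes, Mymk (myomaker) and Mymx (myomixer) never exceeded 0.569 and 0.32 CPM and were not tested. Cdh15, M-cadherin of myoblasts and satellite cells, was at 128.4 to 181.4 in poor and 168.1 to 200.3 CPM in rich tumors and was not called (log2 fold change 0.22 ± 0.09, SE, edgeR adjusted p = 0.307). Itgb1bp2 (melusin), a costamere protein of striated muscle, was called higher (log2 fold change 2.66 ± 0.48, SE, edgeR adjusted p = 0.00621).

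Acetylcholine receptor genes showed the contrast within 1 protein complex. Chrna1, the alpha subunit, was at 2.58 to 3.31 CPM in poor and 4.84 to 8.94 in rich tumors, with no overlap (log2 fold change 1.03 ± 0.16, SE, edgeR adjusted p = 0.0027). Chrnd, the delta subunit, was at 77.3 to 136.3 in poor and 79.8 to 90.8 in rich tumors (log2 fold change -0.23 ± 0.12, SE, edgeR adjusted p = 0.445). Chrnb1, the beta subunit, held 137.6 to 170 CPM in all tumors, and Rapsn, the receptor's clustering protein, 50.3 to 63. Chrne, which replaces Chrng in the adult receptor, was at most 0.478 CPM except in m9 at 1.83. Of the 9 tested junction genes, 2 (Chrna1 and Colq, the tail of the synaptic esterase) were called higher and 0 lower. Among all genes the shares were 2.66% and 0.335%.

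Of 6 genes of muscle atrophy and growth control, 2 were called higher, beside 2.66% of all genes. Trim63 (MuRF1), a ubiquitin ligase of the sarcomere, was at 0.13 to 4.42 in poor and 7.77 to 38.2 CPM in rich tumors (log2 fold change 4.20 ± 0.74, SE, edgeR adjusted p = 0.00544). Mstn, myostatin, which limits muscle growth, was called (log2 fold change 4.27 ± 1.00, SE, edgeR adjusted p = 0.0393) but exceeded 1 CPM only in m5 (1.27) and m9 (3.86). Fbxo32 (atrogin-1), which is often regulated together with Trim63, was at 40.2 to 64.4 in poor and 49.9 to 70.1 in rich tumors and was not called.

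Smooth muscle and heart genes gave 1 call. Of all genes, 2.66% were called higher and 0.335% lower, shares at which short lists often hold none. Of 9 smooth muscle and pericyte genes, 0 were called, and Acta2, smooth muscle actin, ranged over 60.8 to 84.7 CPM in poor and 46.2 to 83.9 in rich tumors (log2 fold change -0.12 ± 0.13, SE, edgeR adjusted p = 0.731). Of the heart-restricted genes, Myh6, Myl7, Nppa and Ryr2 never exceeded 0.474 CPM and were not tested. Tnni3, cardiac troponin I, was at 1.19 to 4.03 CPM in poor and 1.43 to 2.32 in rich tumors. It was not called (log2 fold change -0.51 ± 0.26, SE, edgeR adjusted p = 0.429). Within treated tumors every rich value was below every poor one (log2 fold change -0.86 ± 0.21, SE, edgeR adjusted p = 0.158). Of the 3 heart genes tested, Nppb, the natriuretic peptide BNP, was called higher, although its poor values of 0.0318 to 0.231 and its rich values of 0.125 to 0.51 CPM overlapped (log2 fold change 1.62 ± 0.43, SE, edgeR adjusted p = 0.0772). Of the actin genes named here, Acta1 separated the groups by construction, Actc1 was called and Acta2 was not.

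Genes that passed the test with the smallest p values outside the fibre lists include several known from striated muscle. In the higher direction the 8 leading genes were Ankrd23, Kcnj11, Ppp1r3c, Sypl2, Lrrc2, Asb11, Abra and Klhl38, each with an edgeR adjusted p of 0.00204. They were chosen by smallest p in tumors that were split on Acta1. That p therefore describes movement with Acta1 and is no further evidence. Ankrd23, a titin-binding stretch-response protein, was at 5.38 to 21.8 CPM in poor and 74.5 to 415.5 in rich tumors (log2 fold change 4.23 ± 0.50, SE). Kcnj11, the pore of the ATP-sensitive potassium channel, was at 0 to 0.32 in poor and 1.72 to 14.9 in rich tumors (log2 fold change 5.53 ± 0.67, SE). The log2 fold changes of the other six ran from 3.37 for Lrrc2 to 5.65 for Asb11, and they include a glycogen-targeting phosphatase subunit (Ppp1r3c), a triad membrane protein (Sypl2) and an actin-linked activator of SRF (Abra). In the treated tumors the same 8 genes had log2 fold changes from 2.96 for Lrrc2 to 5.15 for Asb11, each with an edgeR adjusted p of 0.125.

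The 8 leading genes in the lower direction changed far less. They were Masp1, Gm32371, Unc5c, Gm32404, Ptchd1, Sdk1, Gstt1 and Spsb1, with log2 fold changes from -1.07 for Unc5c to -0.39 for Spsb1. All of them but Ptchd1 and Spsb1 were lower in every rich than in every poor tumor. This pattern was seen in 0.261% of all genes tested. The 8 genes were chosen by smallest p in these same tumors, so their separation is no further evidence. Masp1, a protease of the lectin complement pathway, was at 58.4 in m3, 65.6 in m2, 56.4 in m1, 52 in m7, 75.8 in m8 and 53.1 CPM in m12. In the rich tumors it was at 46.2 in m6, 40.8 in m10, 43.7 in m4, 39 in m11, 33.8 in m5 and 38.9 in m9, all below every poor tumor (log2 fold change -0.58 ± 0.09, SE, edgeR adjusted p = 0.00366). Within treated tumors Masp1 had the same log2 fold change, -0.58 ± 0.12 (SE, edgeR adjusted p = 0.125). Unc5c, a netrin receptor, was at 3.47 to 5.26 in poor and 1.24 to 2.93 in rich tumors (edgeR adjusted p = 0.00695), and Gstt1, a glutathione transferase, at 10.7 to 17.5 and 7.43 to 10.5 (edgeR adjusted p = 0.0196). Gstt1 was highest in vehicle tumors (13.2 to 17.5), and its log2 fold change was -0.67 over all tumors but -0.40 within treated tumors.

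Markers of tissues that lie near muscle were examined next. Adipocyte genes gave 1 call over all tumors (1 of 13 higher, 0 lower, median log2 fold change -0.11), beside 2.66% and 0.335% of all genes. The summed level of the 15 listed genes was 80.1 to 268.3 CPM in rich and 24.5 to 219.7 in poor tumors. Adipoq, the fat-specific hormone adiponectin, was highest in the poor vehicle tumor m2 (7.57 CPM), which held almost no Acta1 and no Myh4, and stood at 0.0971 in m3, 3.07 in m1, 0.231 in m7, 0.667 in m8 and 0.0641 in m12. In rich tumors it was at 1.35 in m6, 4.90 in m10, 3.35 in m4, 0.555 in m11, 2.26 in m5 and 0.405 in m9. Within treated tumors the adipocyte median was 2.80, with 12 of 13 genes above 0 and 0 called; Plin4, a lipid droplet coat protein also found in muscle, had a log2 fold change of 3.68 ± 0.62 there (SE, edgeR adjusted p = 0.125). The called member was Car3, a carbonic anhydrase that both fat and muscle express (log2 fold change 2.72 ± 0.75, SE, edgeR adjusted p = 0.095).

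Of 7 tendon genes 2 were called higher, beside 2.66% of all genes. Thbs4, thrombospondin 4 of tendon and muscle, was at 0.291 to 6.41 in poor and 7.42 to 31.8 CPM in rich tumors (log2 fold change 2.48 ± 0.51, SE, edgeR adjusted p = 0.0164), lowest of the rich in m11. Tnmd, tenomodulin, was at 0 in 5 poor tumors and at most 0.494 CPM in any rich tumor, being highest in the VCR tumors m6, m4 and m5 (edgeR adjusted p = 0.0772). Scx, the tendon transcription factor, was not called, at 19.3 to 35.5 in poor and 19.8 to 39.4 in rich tumors.

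Of 13 endothelial genes 0 were called, which at 2.66% of all genes higher and 0.335% lower says little about a list this short, and 12 of 13 had a log2 fold change above 0 (median 0.31, or 0.15 within treated tumors), and their summed level was 316.1 to 401.5 CPM in rich and 221.2 to 334.4 in poor tumors. Their part in the fibre signal was not tested. Pecam1, CD31 of endothelium, was at 35.9 to 53.9 CPM in poor and 47.9 to 63.6 in rich tumors (log2 fold change 0.21 ± 0.10, SE, edgeR adjusted p = 0.407). The 2 lowest values were those of m2 and m3. Of 5 erythroid genes 0 were called, with summed levels of 6.46 to 408.3 CPM in rich and 11.1 to 331.3 in poor tumors. All 5 had a log2 fold change below 0, with a median of -1.10 over all and within treated tumors. Of 18 leukocyte, 14 fibroblast, 6 Schwann cell and 4 keratinocyte genes tested, 0 were called, which at the same shares says little. Leukocyte genes leaned lower: 16 of 18 were below 0 over all tumors (median -0.11) and within treated tumors (median -0.17). Among all 17602 genes, 9213 were below 0 over all tumors.

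Hypoxia and glycolysis genes had lower means in the rich tumors, most of them short of the test. All 14 had a negative log2 fold change over all tumors (median -0.40) and 13 of 14 within treated tumors (median -0.29). Of these 14, 2 were called lower, beside 0.335% of all genes. Pdk1, which holds pyruvate back from mitochondria, was at 50.6 to 95 CPM in poor and 40.9 to 62.4 in rich tumors (log2 fold change -0.56 ± 0.14, SE, edgeR adjusted p = 0.0694). Kdm3a, a hypoxia-induced histone demethylase, had a log2 fold change of -0.42 ± 0.11 (SE, edgeR adjusted p = 0.0767). Vegfa, the endothelial growth factor, was at 219.7 to 346.2 in poor and 202.8 to 263.9 in rich tumors and was not called (log2 fold change -0.33 ± 0.12, SE, edgeR adjusted p = 0.224). The highest values of Pdk1, Kdm3a and Vegfa were in vehicle tumors, so the part of treatment in them cannot be told apart over all tumors.

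The genes of the cell cycle, which the study's drugs address, gave calls at a share near that of all genes. Of 21 mitosis and FOXM1 target genes 1 was called higher, and of 17 DNA replication genes 0 were called, beside 2.66% of all genes. Aurka, the spindle pole kinase, was at 41.3 to 56.6 in poor and 57.5 to 70.6 CPM in rich tumors (log2 fold change 0.31 ± 0.08, SE, edgeR adjusted p = 0.0577). Foxm1 itself was at 138.1 to 178.3 in poor and 165.7 to 176.5 in rich tumors (log2 fold change 0.13 ± 0.06, SE, edgeR adjusted p = 0.373), and Mki67, the proliferation marker Ki-67, at 405 to 612.5 and 411 to 568.6 (log2 fold change -0.04 ± 0.10, SE, edgeR adjusted p = 0.889). Chac1, a glutathione-degrading enzyme of the stress response that the study followed up, was at 29.5 in m3, 22 in m2, 10.8 in m1, 10.7 in m7, 19.1 in m8 and 7.02 in m12, and at 7.91 to 21.1 CPM in rich tumors (log2 fold change -0.37 ± 0.32, SE, edgeR adjusted p = 0.659). Of 19 ATF4 stress response genes 0 were called, which at 2.66% of all genes higher and 0.335% lower says little. Over all tumors 13 of the 19 were below 0 (median -0.09), whereas within treated tumors 13 were above 0 (median 0.06).

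Nuclear genes of mitochondrial respiration lay slightly higher in rich tumors. All 20 had a positive log2 fold change (median 0.15), and 2 were called higher, beside 2.66% of all genes. The 2 were Cox5a, a cytochrome oxidase subunit (93.2 to 120.6 against 121.2 to 157.6 CPM, log2 fold change 0.34 ± 0.09, SE, edgeR adjusted p = 0.063), and Ogdh, a citric acid cycle enzyme (log2 fold change 0.30 ± 0.08, SE, edgeR adjusted p = 0.0652). Of 16 clock genes, 1 was called higher and 1 lower, beside 2.66% and 0.335% of all genes. The lower gene was Ciart, a circadian repressor (log2 fold change -0.71 ± 0.19, SE, edgeR adjusted p = 0.0913). The largest log2 fold change of any single clock gene was 3.22 over all tumors and 3.30 within treated tumors, while the list's medians were -0.07 and -0.05. Of 12 widely expressed reference genes, 8 RMS receptor genes and 4 Y-linked genes, 0 were called, which at the shares of all genes says little.

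Treatment was then entered as a term, which leaves only the contrasts of m9 with m7 and m8 and of m10 and m11 with m12, since all VCR tumors were rich and all vehicle tumors poor. This fit called 114 genes higher (0.648%) and 1 lower, of which 109 were also called in the comparison of all tumors. Myf6 (log2 fold change 3.36 ± 0.70, SE, edgeR adjusted p = 0.0919), Chrna1 (1.12, edgeR adjusted p = 0.0887), Ankrd23 (3.96, edgeR adjusted p = 0.0802) and Kcnj11 (5.36, edgeR adjusted p = 0.0749) were among them. Myod1 (2.87, edgeR adjusted p = 0.338), Des (3.39, edgeR adjusted p = 0.1003) and Masp1 (-0.57, edgeR adjusted p = 0.204) were not.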

How the data were processed

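RNA of 12 mouse tumors was sequenced from polyadenylated libraries. The authors deposited, per tumor, estimated counts and TPM per transcript. The labels name kallisto, DESeq2 and GRCm38, while the versions are not given in the sources used here. The labels call the kit stranded and the libraries non-stranded, so overlapping antisense genes may share reads. All 120299 transcripts were matched to annotated genes by transcript name and version, and were summed to 38898 genes.

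Counts were rounded for edgeR 4.0.16 (glmQLFit and glmQLFTest, TMM factors 0.963 to 1.03) and Benjamini-Hochberg adjustment at 0.1 over 17602 genes that kept at least 10 counts by filterByExpr over the 4 treatment groups. Levels are CPM of the tumor's total, and r and the ratios to Acta1 used a pseudocount of 0.5. Named genes were the study's and the split's own genes, list members by level or role, the 8 genes of smallest p in each direction outside the fibre lists, the 10 most like Acta1 and the 5 least like it among muscle lists (among them Chrnd, Six4, Pax3 and Myf5); some genes are not reported here. The split, the 29 gene lists and the tests were chosen with earlier results of these data known. Alternatives included DESeq2 1.42.0, limma-voom 3.58.1, other filters, added terms and leaving out each tumor. The scripts were tested on simulated data.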

Additional observations from a re-analysis of the deposited data

Results flagged for a closer look

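For 64 genes, the highest and lowest tumor of each group of 6 was compared with the rest on log2(CPM + 0.5), and 4 of 128 groups held a tumor farther from the others than the 95% limit of Dixon's test (0.625 of the range). About 1 in 20 groups passes this limit by chance. Tumor m12, the poor tumor nearest the split, was highest in 3 of them: Myod1 at 0.449 CPM against 0 to 0.033 in the other poor tumors, Myog at 1.63 against 0 to 0.286, and Klhl38 at 0.16 against 0.0316 to 0.0647. Tnmd was at 0.0341 CPM in m2, which is 1 read, and at 0 in the other poor tumors, so that any read in m2 would have passed the limit.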

How the results depend on the processing

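The comparison of all tumors called 527 genes. DESeq2 called 869, the term for each treatment group 115 and log2 Acta1 as a continuous covariate 1573. Leaving out 1 tumor gave 351 to 612 calls, the fewest without m5, and 329 of the 527 genes were called in each of these 12 fits, while all 527 kept their direction. In treated tumors alone 0 genes were called, but 189 with no filter on low counts, 425 by DESeq2 and 633 with continuous Acta1. Leaving out 1 treated tumor gave 0 to 169 calls: 169 without m6, 144 without m10, 108 without m9 and 0 without each other tumor. The cause was not tested. The smaller calls did not hold throughout: Colq (adjusted p up to 0.132 on leaving out 1 tumor), Tnmd (0.189), Car3 (0.231), Aurka (0.132), Cox5a (0.156), Ogdh (0.167), Pdk1 (0.183), Kdm3a (0.188), Ciart (0.2), Nppb (0.209) and Mstn (0.103) were lost without 1 or more tumors.

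The sign turned for 5 of 64 genes. With the treatment term the log2 fold change was -0.42 for Csrp3, 0.091 for Chac1, 0.10 for Mki67 and 0.0299 for Myf5. Myf5 was also 0.0067 by limma-voom and 0.00081 with the Y-linked term, and Adipoq -0.0644 with continuous Acta1. Over fits without 1 tumor, Myf5 ranged from -0.0517 to 0.0628, Mki67 from -0.10 to 0.0084 and Adipoq from -0.26 to 1.38 (the latter without m2). The difference in library totals ranged from 249110 to 742364 reads on leaving out 1 tumor. No paired analysis was possible because the tumors of the 2 groups share no replicate numbers. Depth limits genes under 1 CPM, such as Myod1 in poor tumors, to few reads.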

Other observations

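The B cell gene Ms4a1 stood at 3.51 CPM in m4, a rich VCR tumor, and at most at 0.259 in the 11 other tumors. Hbb-bs, beta globin, was at 154.4 CPM in the same tumor and at 1.54 to 30.1 in the other rich tumors, while the poor tumors ranged over 3.58 to 142.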
